A study of Bos taurus with 16 samples.

Results

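The genes of oxidative phosphorylation were examined in bovine blastocysts and bovine embryonic stem cells (bESCs) treated with LY2955303 (LY), an inhibitor of retinoic acid receptor gamma (RARγ). Oxidative phosphorylation is the work of 5 enzyme complexes in the inner mitochondrial membrane. Complexes I and II take electrons from NADH and succinate, complex III passes them to cytochrome c, and complex IV hands them to oxygen. Complex V, the ATP synthase, uses the proton gradient built on the way to make ATP. Most subunits are encoded in the nucleus, while a small set of hydrophobic subunits is encoded in mitochondrial DNA, so that all complexes but complex II are mosaics of both genomes. In bovine embryos the mitochondria are inherited from the oocyte, and blastocyst formation is known to need a rising supply of ATP.

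Members were chosen by gene name. The nuclear set held names starting with NDUFA, NDUFB, NDUFC, NDUFS or NDUFV and a number, UQCR, COX4 to COX8 or ATP5, together with SDHA to SDHD and CYC1. The mitochondrial set held all 13 protein-coding genes of mitochondrial DNA, and assembly factors were left out. The rule found 100 of 38959 genes in the table of LY10 and DMSO and 100 of 37429 in that of LY_DMSO, cell2_LY and cell16_LY. It found 97 of 28303 in the bESC table, where the names COX6C, COX7C, COX7ALP1, ATP5MJ and ATP5MK did not occur and ATP5MD and ATP5MPL did. Of the 87 nuclear members in blastocysts, 86 were protein-coding and COX7ALP1 was annotated as a pseudogene. Complex I held 36 nuclear and 7 mitochondrial members, complex II 4 nuclear ones, complex III 9 and 1, complex IV 20 and 3, and complex V 18 and 2. NDUFA4 and NDUFA4L2, named after complex I, were counted with complex IV, with which NDUFA4 is known to work.

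All blastocysts were wild-type bovine embryos made by in vitro fertilization and cultured in medium with LIF, FGF2 and IGF1, and each library was made from 1 whole blastocyst. LY10 embryos (3 libraries) received 10 μM LY from the 2-cell stage, and DMSO embryos (3 libraries) received the vehicle. In a separate experiment, cell2_LY and cell16_LY embryos (2 libraries each) received LY from the 2-cell and the 16-cell stage. LY_DMSO embryos (2 libraries) carry the names of both LY and DMSO in their label, without a dose. They were taken here as the DMSO control of that experiment, which the study describes, and the label alone does not settle this. The bESCs, wild-type cells derived from blastocysts, were grown on mouse feeder cells in tifx medium, which holds LIF, forskolin and inhibitors of several signaling enzymes. bESC_tifx (2 libraries) carry only the medium in their labels, while the study describes the bESC control as a DMSO vehicle control, and bESC_LY (2 libraries) had LY, with no dose in the labels. The methods call the replicates biological without saying which libraries came from separate cultures, so that p-values in bESCs may measure a technical spread. Whole embryos and cultures were sequenced, so fewer cells of a type and less RNA per cell cannot be told apart.

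Blastocyst libraries held between 7905768 and 17343140 reads on genes and bESC libraries between 29055323 and 31230432. Leaving out DMSO replicate 3 raised the number of genes past adjustment in its table from 2 to 1963, and cell2_LY replicate 1 stood apart from the other libraries of its table, so values are given without them where they matter. The batch label is 1 for every library, and no batches could be compared. The labels name a blastocyst and all 12 trophectoderm markers had reads in each of the 12 blastocyst libraries. In the bESCs, epiblast markers summed to between 1986 and 2126 FPKM (fragments per kilobase of gene length, scaled to library size), POU5F1 among them. Of the 12 trophectoderm markers 10 had reads in each bESC library, with sums between 103 and 302 FPKM beside 2814 to 9892 in blastocysts, and IFNT2 and PAG2 were at 0 reads. Of a list of 8 fibroblast markers, at least 6 had reads in each bESC library, and their sum was between 70.6 and 82.2 FPKM.

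Transcripts of the 13 mitochondrial genes outweighed those of all nuclear members in every library but 1. On the FPKM scale, which allows genes of different length to be set side by side, mitochondrial members summed to 61121, 76686 and 40089 in DMSO and to 64416, 62339 and 51654 in LY10. Nuclear members summed to 45340, 50267 and 48285 in DMSO and to 42138, 30412 and 42123 in LY10. All LY10 sums of nuclear genes lay below the DMSO sums, and those of mitochondrial genes overlapped. As a share of all FPKM without mitochondrial members, nuclear members took 7.88%, 7.84% and 7.33% in DMSO and 7.40%, 6.005% and 7.31% in LY10. Their share of reads on genes was 3.37%, 3.56% and 3.425% in DMSO and 3.45%, 2.73% and 3.35% in LY10. The groups overlapped in both shares. The ratio of mitochondrial to nuclear FPKM was 1.35, 1.53 and 0.83 in DMSO, the last being DMSO replicate 3, and 1.53, 2.05 and 1.23 in LY10.

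In the second experiment the mitochondrial sums were 80514 and 82808 FPKM in LY_DMSO, 55814 and 81852 in cell2_LY and 88144 and 75152 in cell16_LY. The nuclear sums were 41732 and 37568 in LY_DMSO, 22343 and 35821 in cell2_LY and 35286 and 32804 in cell16_LY. In these sums all 4 cell2_LY and cell16_LY libraries lay below both LY_DMSO libraries, as in the nuclear share of reads on genes. As a share of all FPKM without mitochondrial members, cell2_LY replicate 2 (6.68%) lay above LY_DMSO replicate 2 (6.56%). The other treated libraries lay below both LY_DMSO libraries in that share. Ratios of mitochondrial to nuclear FPKM were 1.93 and 2.20 in LY_DMSO, 2.5 and 2.29 in cell2_LY and 2.5 and 2.29 in cell16_LY. These ratios were higher in every treated library than in both LY_DMSO libraries, by a small margin over LY_DMSO replicate 2.

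The bESCs had a lower nuclear than mitochondrial level as well. Nuclear sums were 8114 and 6268 FPKM in bESC_tifx and 8261 and 6134 in bESC_LY, and mitochondrial sums were 23359 and 36393 in bESC_tifx and 25012 and 36653 in bESC_LY. In both groups the libraries numbered 3 had about the same ratio, 5.81 and 5.98, and the libraries numbered 2 had 2.88 and 3.03. Within a number the treated and untreated bESC libraries were close, and between numbers they were far apart. Blastocyst RNA was amplified from single embryos with a SMART-seq kit and bESC RNA was column-purified in bulk, and the tables were normalized separately. The gene models, whose length enters FPKM, differed too. COX5B was 469 bases long in blastocysts and 1718 in bESCs, ATP5ME 296 and 1160, and NDUFA5, the other way, 2799 and 814. Mitochondrial genes such as COX1 (1545 bases) had the same length in both. Cell type, preparation and gene model therefore cannot be told apart between blastocysts and bESCs, in sums, ratios or single nuclear genes.

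**Figure D1:**
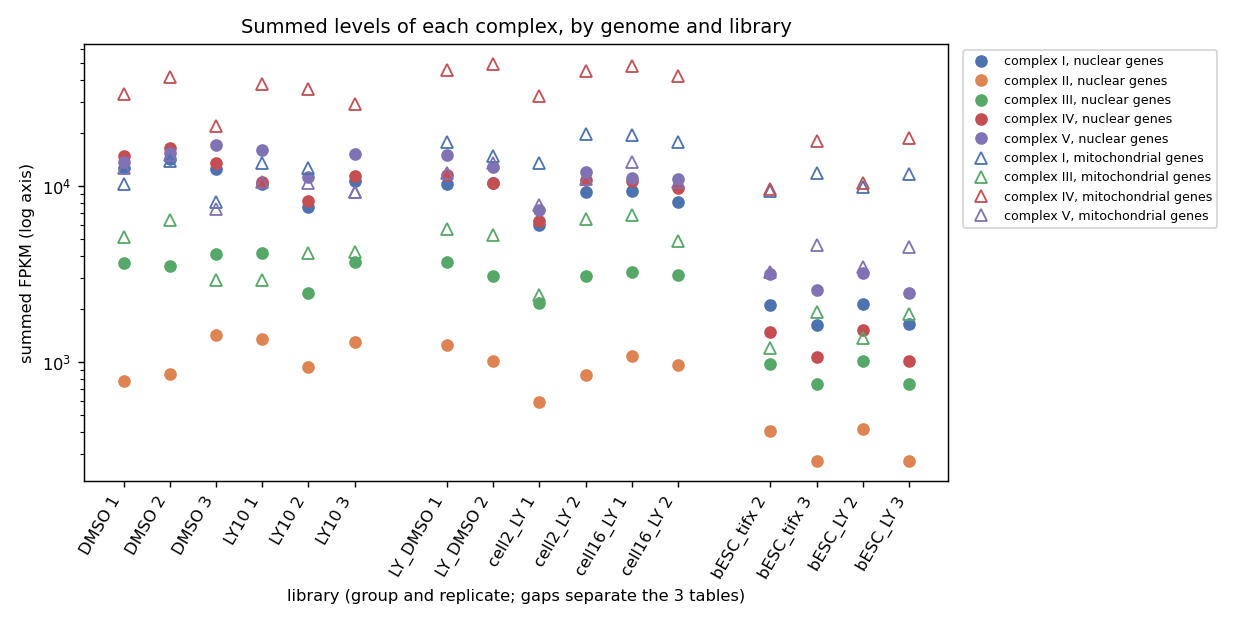
Summed FPKM (log axis) of the members of each complex in each of the 16 libraries, filled circles for nuclear and open triangles for mitochondrial genes, with gaps between the 3 tables. Mitochondrial complex IV genes have the highest sum and nuclear complex II genes the lowest in all 16 libraries.

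Among mitochondrial genes COX1, COX2, COX3 and ATP6 were the most abundant in all 12 blastocyst libraries. COX3, a core subunit of complex IV, was at 17930, 22871 and 10162 FPKM in DMSO and 16890, 16175 and 14633 in LY10. ATP6, the proton channel subunit of complex V, was at 12345, 14599 and 7197 FPKM in DMSO and 10285, 10192 and 9038 in LY10. COX2, which receives electrons from cytochrome c, was at 9932, 10066 and 6659 in DMSO and 9056, 7257 and 7668 in LY10. These 3 genes and COX1, the catalytic subunit with the heme and copper site, together took between 67.98% and 73.56% of all mitochondrial reads in the 12 blastocyst libraries and between 54.47% and 64.70% in the 4 bESC libraries.

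COX1 changed its rank between libraries. It was at 5337, 8705 and 4946 FPKM in DMSO, 11695, 11801 and 6684 in LY10, 18679 and 12329 in LY_DMSO, 15899 and 18632 in cell2_LY and 21332 and 18732 in cell16_LY. Set against COX3 in the same library, COX1 was at between 29.76% and 48.67% in DMSO, between 45.67% and 72.96% in LY10, at 107% and 44.6% in LY_DMSO, at 182% and 116% in cell2_LY and at 127% and 133% in cell16_LY. DMSO and LY10 overlapped in this ratio, the 4 treated libraries of the second table lay above both LY_DMSO libraries, and the LY_DMSO libraries differed from each other more than LY_DMSO replicate 1 did from cell16_LY. In bESCs COX1 was at 4079 and 10191 FPKM in bESC_tifx and 4462 and 10708 in bESC_LY, again split by the library number and not by the treatment.

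The complex I genes of mitochondrial DNA spanned a wide range. ND4, a proton-pumping subunit, was at 2706, 3465 and 1845 FPKM in DMSO and 2921, 2766 and 2100.5 in LY10, while its neighbour ND4L was at 358, 419 and 204 in DMSO and 387, 447 and 297 in LY10. ND1, at 1830.1, 2728 and 1336 in DMSO and 2266, 2067 and 1649 in LY10, and ND2, at 1723, 2373 and 1634 in DMSO and 2030.1, 1877 and 1822 in LY10, lay between them. ND3, at 996, 1211 and 635 in DMSO and 1015, 899 and 794 in LY10, was lower than both in every library of this table. ND5 was at 611, 902 and 591 in DMSO and 1459, 1614 and 758 in LY10, and ND6, the only member read from the other strand, at 1943, 2709.8 and 1813 in DMSO and 3304, 2911 and 1836 in LY10. CYTB, the mitochondrial subunit of complex III, was at 5138, 6342 and 2912 in DMSO and 2921, 4140.3 and 4196 in LY10.

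The same order held largely in the second experiment. ND1 was at 3046 and 2533 FPKM in LY_DMSO, 3206 and 3483 in cell2_LY and 2552 and 2508 in cell16_LY. ND6 was at 3536 and 2787 in LY_DMSO, 3485 and 4932 in cell2_LY and 4751 and 3834 in cell16_LY, and CYTB at 5651 and 5257 in LY_DMSO, 2388 and 6443 in cell2_LY and 6793 and 4866 in cell16_LY, lowest in cell2_LY replicate 1. ATP8, a small membrane subunit of complex V, was the lowest of the 13 in all 16 libraries. It was at 271, 297 and 156 in DMSO, 186, 192 and 179 in LY10 and 59.4 and 70.5 in bESC_tifx. ATP8 and ATP6 overlap in mitochondrial DNA (ATP8 at 8129 to 8329 and ATP6 at 8290 to 8970), as do ND4L (10239 to 10535) and ND4 (10529 to 11906), and ND6 (13913 to 14440) lies against the end of ND5 (12109 to 13929). Whether the counting used strand is not given in the sources used here, so reads on these overlaps cannot be assigned to 1 gene with certainty, and nuclear copies of mitochondrial DNA add to that doubt.

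Several nuclear subunits have isoforms that are known to mark muscle, testis or lung, and blastocysts used the common forms. COX4I1, the common form of the largest nuclear subunit of complex IV, was at 425, 648 and 458 FPKM in DMSO and 556, 581 and 495 in LY10, while COX4I2 had 0 reads in these 6 libraries and at most 6 in those of the second experiment. COX6A1 was at 1525, 857 and 1577 in DMSO and 1338, 1096 and 1562 in LY10, beside at most 15 reads on COX6A2, the muscle form. COX7A2 was at 1356, 1308 and 1284 in DMSO and 909, 687 and 824 in LY10, beside at most 12 reads on COX7A1 in any blastocyst library, and COX8A at 606, 876 and 725 in DMSO and 742, 494 and 667 in LY10, beside at most 2 reads on COX8B. A count of 0 reads allows up to 3 reads, and this covers counting error only.

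COX6B1 was at 1189, 1784 and 1108 FPKM in DMSO and 926, 649 and 887 in LY10, and COX6B2, known from testis, at 5.49, 5.32 and 5.21 in DMSO and 3.15, 1.07 and 3.74 in LY10. In bESCs COX6B2 was at 28.1 and 18.1 in bESC_tifx and 23.2 and 17 in bESC_LY, beside COX6B1 at 128 and 102 in bESC_tifx and 135 and 102 in bESC_LY. NDUFA4 was at 2290.4, 2735 and 1790 in DMSO and 1123, 1094 and 1441 in LY10, and all LY10 libraries lay below all DMSO libraries. Its paralog NDUFA4L2, known as a gene induced by low oxygen, had at most 14 reads in a blastocyst library. In bESCs NDUFA4L2 was at 74.5 and 11 FPKM in bESC_tifx and 67.6 and 10.5 in bESC_LY, high in both libraries numbered 2 and low in both numbered 3.

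ATP5MC1, ATP5MC2 and ATP5MC3 encode the same mature c subunit of the ATP synthase ring, and the third was the most abundant in blastocysts. ATP5MC3 was at 1776, 2412 and 2458 FPKM in DMSO and 2264, 1732 and 2325 in LY10, ATP5MC1 at 488, 474 and 802 in DMSO and 885, 494 and 719.6 in LY10, and ATP5MC2 at 453, 399 and 626 in DMSO and 631, 434 and 532 in LY10. In bESC_tifx they were at 294 and 196 (ATP5MC3), 80.7 and 66.9 (ATP5MC1) and 241 and 208 (ATP5MC2), so that ATP5MC2 was about as high as ATP5MC3 there. ATP5IF1, which inhibits the synthase when it would run backwards, was at 1236, 1127 and 1095 in DMSO and 1329, 611 and 1065 in LY10. COX7A2L, which helps complexes III and IV to form supercomplexes, was at 252, 220.2 and 271 in DMSO and 208, 202 and 267 in LY10. Neither of these last genes separated the groups.

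Between LY10 and DMSO blastocysts, nuclear members passed the threshold about as often as all genes did, in both directions. At a p under 0.05 alone they did so more often than genes of any length, above all downwards, where short genes in general were lower as well. Among those that rose were UQCRC1, SDHA and ATP5F1B, and among those that fell NDUFB1, COX7C and ATP5ME. This comparison asked what LY from the 2-cell stage changed in the blastocyst. Changes were called at the study's threshold, an unadjusted p under 0.05 in limma and an absolute log2 fold change above 1. Of the 82 nuclear members that passed the filter of a mean normalized count of at least 10, 7 rose and 8 fell. Over all 14249 genes tested, 6.20% rose and 8.51% fell, so the share of members called (8.54% and 9.76%) was near the background. At a p under 0.05 alone, 14 of the 82 members were higher and 27 lower, larger shares than the 10.8% and 12.2% of all genes. Groups did not overlap for 13 of the 82 members that were higher in LY10, a share near the 13.8% of all genes. They did not overlap for 30 that were lower, a larger share than the 14.4% of all genes. No member passed adjustment over all genes, with the smallest adjusted p at 0.0783, and 2 of all genes did. Without DMSO replicate 3, 27 nuclear members did, 13 higher and 14 lower. Of all genes called, 57.8% were lower, and 45.0% under quantile normalization.

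The 5 nuclear members that did not pass the filter were COX4I2, COX6A2, COX7A1, COX8B and NDUFA4L2. Over all tested nuclear members the median log2 fold change was -0.34, against -0.05 for all genes, with 29 above 0 and 53 below. Leaving out DMSO replicate 2 gave 4 higher and 5 lower, DMSO replicate 3 gave 11 and 13, LY10 replicate 2 gave 3 lower and LY10 replicate 3 gave 14 lower. Genes that passed whichever of the 6 libraries was left out included UQCRC1, NDUFV1 and SDHA, which were higher, and COX7C and NDUFB3, which were lower.

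In complex I, 3 of 36 nuclear members rose and 4 fell, with a median log2 fold change of -0.38. NDUFV1, which binds NADH and its flavin, had normalized counts of 373, 461 and 504 in DMSO and 1576, 969 and 1026 in LY10, 2.62-fold higher at a log2 fold change of 1.39 ± 0.27 (SE, adjusted p = 0.0783). NDUFS1, the largest iron-sulfur subunit, had 1036, 849 and 1857 in DMSO and 2617, 3182 and 2507 in LY10, a change of 1.23 ± 0.30 (SE, adjusted p = 0.0847). For both of these genes of the matrix arm every LY10 library lay above every DMSO library.

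The genes that fell encode small subunits of the membrane arm. NDUFB1 had 4393, 4535 and 3674 normalized counts in DMSO and 1987, 1542 and 2292 in LY10, a log2 fold change of -1.13 ± 0.22 (SE, adjusted p = 0.0783). NDUFB3 had 3349, 3150.5 and 1818 in DMSO and 1089, 847 and 1509.8 in LY10, a change of -1.26 ± 0.31 (SE, adjusted p = 0.0843), and NDUFB2 had 1084, 1159.9 and 729.7 in DMSO and 489.5, 345 and 489 in LY10, a change of -1.16 ± 0.27 (SE, adjusted p = 0.0818). NDUFA1 had 5188, 6724 and 2048 in DMSO and 1143, 1527 and 2661 in LY10, a change of -1.31 ± 0.46 (SE, adjusted p = 0.15). NDUFA1 showed the lowest log2 fold change of the complex, and its groups overlapped, with DMSO replicate 3 below LY10 replicate 3, whereas NDUFB1, NDUFB2 and NDUFB3 did not overlap.

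Complex II, succinate dehydrogenase, is encoded by nuclear genes alone, and all 4 had a log2 fold change above 0, with a median of 0.37. SDHA, the flavoprotein that oxidizes succinate, had 1123, 734 and 1350.1 normalized counts in DMSO and 3586, 2516 and 2506 in LY10, 2.73-fold higher at 1.45 ± 0.28 (SE, adjusted p = 0.0783). Its groups stood clearly apart. SDHD, a membrane anchor, had 6414, 6843 and 12426 in DMSO and 9633, 5670.1 and 10092 in LY10, a log2 fold change of 0.01 ± 0.33 (SE, adjusted p = 0.994), with overlapping groups, so the subunits of 1 complex did not share 1 size of difference.

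In complex III, 2 of 9 nuclear members rose and none fell, though 2 were lower at a p under 0.05. UQCRC1, a large matrix-facing protein without a redox group, lies on chromosome 22 from 51275070 to 51283828 of ARS-UCD2.0. It had 644, 389 and 1224 normalized counts in DMSO and 3983, 2726 and 2916 in LY10, 4.68-fold higher at a log2 fold change of 2.23 ± 0.39 (SE, adjusted p = 0.0783), which was the largest difference of any member. CYC1, cytochrome c1, had 1778, 1723 and 3024 in DMSO and 7959, 3369 and 3723 in LY10, a change of 1.14 ± 0.37 (SE, adjusted p = 0.125). Its groups did not overlap, but LY10 replicate 1 held more than the other two together. UQCRH, the hinge protein that holds cytochrome c1, had 3987, 6114 and 3521 in DMSO and 2336, 1929 and 2767 in LY10, a change of -0.93 ± 0.26 (SE, adjusted p = 0.102), in the direction opposite to CYC1.

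Complex IV had the lowest nuclear median, -0.71 over 15 tested members, of which 3 fell and none rose. COX7C, a small subunit that spans the membrane once (chromosome 7, 86288769 to 86290937), had 10501, 9214 and 7085 normalized counts in DMSO and 3736, 3027 and 4851 in LY10, a log2 fold change of -1.21 ± 0.25 (SE, adjusted p = 0.0783). COX6C, of similar build, had 8677, 11272 and 6642 in DMSO and 4839, 2379 and 4887 in LY10, a change of -1.18 ± 0.33 (SE, adjusted p = 0.0997). Both were lower in all LY10 libraries than in any DMSO library. COX7B2, an isoform of COX7B, had 354, 483 and 196 in DMSO and 134, 202 and 107 in LY10, a change of -1.17 ± 0.40 (SE, adjusted p = 0.139), with overlapping groups. COX5A, which sits on the matrix side, was the highest of the complex at 0.12 ± 0.22 (SE, adjusted p = 0.776), with 6755, 7997 and 7734 in DMSO and 8682, 6441 and 9530.4 in LY10.

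In complex V, 1 of 18 nuclear members rose and 1 fell. ATP5F1B, the catalytic beta subunit, had 8062, 6762 and 12342 normalized counts in DMSO and 21081, 20303 and 17397 in LY10, 2.23-fold higher at 1.16 ± 0.26 (SE, adjusted p = 0.0786). ATP5ME, a small subunit at the dimer interface, had 819.7, 1014 and 575 in DMSO and 415, 193 and 438 in LY10, 2.38-fold lower at -1.25 ± 0.37 (SE, adjusted p = 0.108). Both separated the groups in every library, the first upwards and the second downwards.

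**Figure D2:**
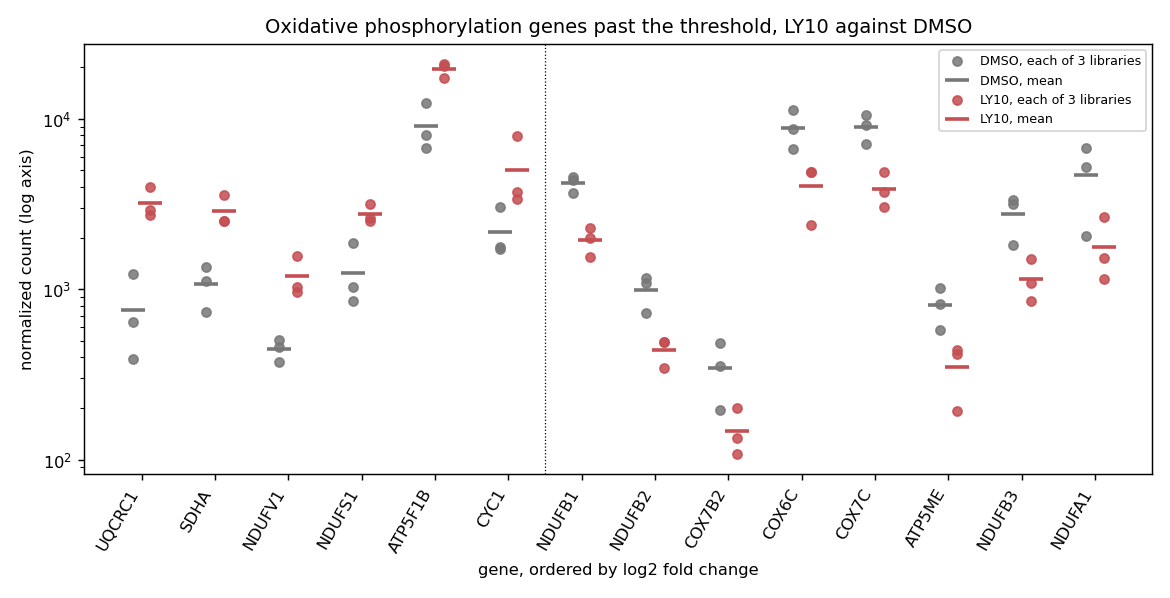
Normalized counts (log axis) of 14 of the 15 members past the threshold in LY10 against DMSO, 1 point per library and a bar at each mean of 3, ordered by log2 fold change. UQCRC1 stands furthest to the left at 2.23 and NDUFA1 furthest to the right at -1.31, and among the genes plotted only NDUFA1 and COX7B2 have overlapping groups.

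The sign of the log2 fold change, in members past the threshold or not, split by the role of the subunit and by the length of its gene at the same time. Complexes I, II, III and V were split into core and accessory subunits after the values had been seen. The core class held 7 subunits of complex I, 4 of complex II, 2 of complex III and 5 of complex V. It was not limited to subunits that carry redox groups or catalytic sites. Of the 18 core subunits 16 had a log2 fold change above 0 (median 0.74, 6 higher and none lower). Of 49 accessory subunits 39 were below 0 (median -0.44, 1 higher and 5 lower). Leaving out 1 library moved the core median between 0.57 and 1.00. The 7 genes that rose were 1217 to 4206 bases long (median 1763), and the 8 that fell 260 to 893 bases (median 465). The split in sign between core and accessory subunits did not recur in the separate experiment. In cell2_LY all 18 core subunits were below 0 (median -0.60), as were 46 of 49 accessory ones (median -0.44). In cell16_LY 16 of 18 core and 43 of 49 accessory subunits were below 0 (medians -0.29 and -0.27).

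Short genes were lower in LY10 well beyond this set. Of the 467 tested genes of up to 600 bases, members included, the median log2 fold change was -0.77 and 24.0% fell, and the 32 members of that length had a median of -0.63. Above 600 and up to 1000 bases the medians were -0.54 for all 980 genes and -0.28 for 18 members. Above 1000 and up to 2000 bases they were -0.01 for all 3005 genes and 0.22 for 28 members, and above 2000 bases 0.01 for 9797 genes and 0.55 for 4 members. In each class the median of the members lay above that of all genes of like length. At a p under 0.05 alone, 37% of all genes of up to 600 bases were lower and 0.642% higher. Of the 32 members of that length 17 were lower and 0 higher. Above 600 and up to 1000 bases it was 26.3% and 3.27%, beside 5 and 2 of 18 members. Above 1000 and up to 2000 bases it was 12.3% and 14.8%, beside 4 and 10 of 28. Above 2000 bases it was 9.51% and 10.7%, beside 1 and 2 of 4. Over the 82 members Spearman's rho of length and log2 fold change was 0.58, and over all tested genes 0.08, as a description across genes that share the same 6 libraries.

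The share of a library's reads on genes of up to 600 bases other than members was 5.41%, 6.21% and 4.44% in DMSO and 3.11%, 2.72% and 3.34% in LY10. All LY10 libraries lay below all DMSO libraries, and DMSO replicate 3 was the lowest of its group. Some lists of cell type markers differed as well, read against 6.20% of all genes higher and 8.51% lower. Of the 8 fibroblast markers, 6 were tested and 3 fell, and the list summed to 26.6, 25.4 and 91.4 FPKM in DMSO and to 6.10, 8.66 and 11.7 in LY10. COL3A1, POSTN and TWIST1 were at 0 reads in LY10 replicates 1 and 3. The 8 epiblast markers summed to 546, 430 and 392 FPKM in DMSO and to 585, 901 and 591 in LY10. Of the other marker lists, 1 of 12 trophectoderm genes fell (ELF3), 1 of 6 hypoblast genes rose (PDGFRA), 1 of 2 oocyte genes fell (OOEP) and none of 5 cumulus genes passed. The trophectoderm share (8.33%) was near that of all genes, with a median log2 fold change of -0.07. Trophectoderm sums overlapped, at 3285, 2814 and 6768 FPKM in DMSO and 9892, 3879 and 5341 in LY10. The hypoblast, oocyte and cumulus lists held too few tested genes to set a share beside that of all genes. The part that the length of genes or the makeup of the embryos has in the differences above was not tested.

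**Figure D3:**
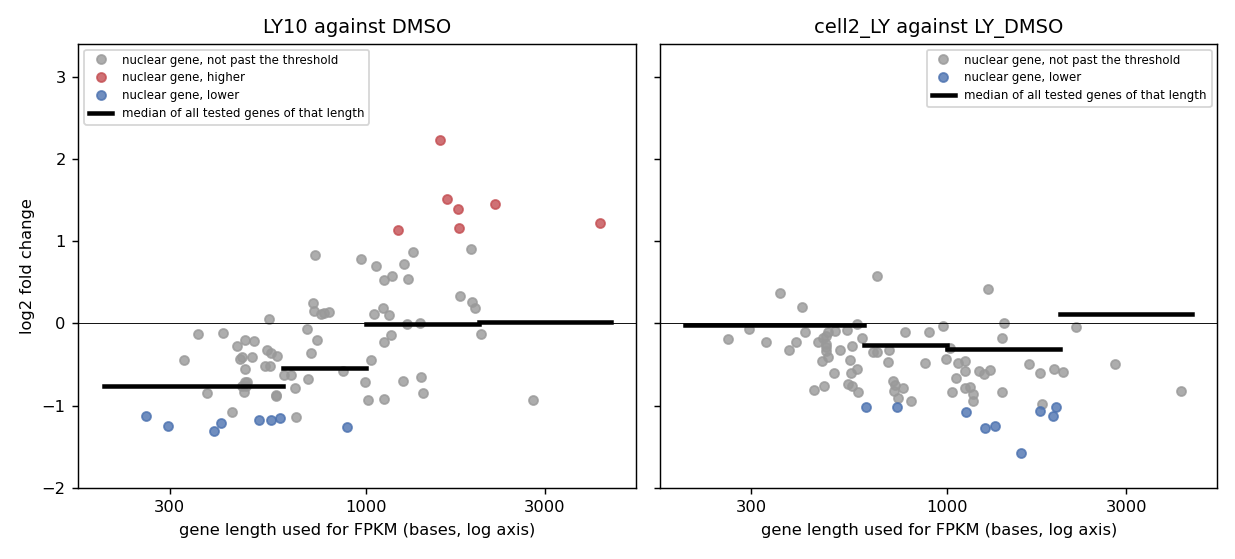
Log2 fold change of nuclear members against the gene length used for FPKM (log axis), for LY10 against DMSO on the left and cell2_LY against LY_DMSO on the right, with bars at the median of all tested genes in 4 length classes. In LY10 the 8 genes that fell are at most 893 bases long and the 7 that rose at least 1217, and in cell2_LY the 9 genes that fell are 607 to 1952 bases long.

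As a group the mitochondrial genes lay near 0 in LY10. None of the 13 passed the threshold, 1 had a p under 0.05 (ND5), and their median log2 fold change was -0.01. ND5, a proton-pumping subunit of complex I, was the highest, with 11861, 17501 and 11466 normalized counts in DMSO and 28305, 31298 and 14698 in LY10, a change of 0.82 ± 0.32 (SE, adjusted p = 0.184), and its groups overlapped. ND5 passed the threshold without DMSO replicate 2 and without LY10 replicate 3. ATP8 was the lowest, with 579.9, 637 and 334 in DMSO and 398, 412 and 383 in LY10, a change of -0.32 ± 0.29 (SE, adjusted p = 0.53). The groups of all 13 genes overlapped. DMSO replicate 3 gave 3.44% of its reads to mitochondrial genes, and the other DMSO and LY10 libraries between 4.67% and 6.98%.

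Genes that work beside the complexes were called in both directions in LY10, where 6.20% of all genes rose and 8.51% fell (median -0.05). Of 50 tested assembly factors 3 rose (6%) and 4 fell (8%), near those shares (median 0.01), ACAD9 (log2 fold change 1.94) and FOXRED1 (1.87), both needed for complex I, among the first and COX17 (-1.33), the copper chaperone of complex IV, among the second. Of 17 genes of electron carriers and coenzyme Q 3 rose (17.6%) and 1 fell (5.88%), with a median of 0.41. ETFDH (1.5), which feeds electrons from fatty acid oxidation to coenzyme Q, and COQ6 and COQ9, which make coenzyme Q, rose, while CYCS (-1.30), cytochrome c itself, fell. Of 29 genes that maintain mitochondrial DNA and RNA 2 rose (6.9%, median 0.18), of 12 biogenesis regulators none passed (median -0.19) and of 8 carriers and porins UCP2 (1.71) alone rose (median 0.42).

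In blastocysts treated from the 2-cell stage in the second experiment (cell2_LY), 9 of 82 tested nuclear members fell against LY_DMSO and none rose, and without cell2_LY replicate 1 UQCRC1 alone fell. The 9 belong to complexes I, III and V, with UQCRC1, ATP5F1A and ATP5F1B among them. Of the 82, 77 had a log2 fold change below 0, with a median of -0.48 against 0.00 for all genes. Over the 14529 genes tested, 8.71% rose and 8.34% fell, beside 0% and 11.0% of nuclear members. The share that fell was near the background, and the share that rose was below it. At a p under 0.05 alone, 0 of the 82 members were higher, beside 11.1% of all genes. Lower were 22 of them, a larger share than the 13.5% of all genes. No member passed adjustment, with the smallest adjusted p at 0.0743. Without cell2_LY replicate 2, 19 nuclear members, all lower, and 2 mitochondrial ones passed it among 875 genes, and none did without any other library.

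The count rested in good part on cell2_LY replicate 1. Without cell2_LY replicate 2, 30 nuclear genes fell, with medians between -0.82 and -0.18 over the libraries left out. Quantile normalization left 1 gene lower and a median of -0.15. When the reads on genes stood in for the authors' library size, 3 fell and the median was -0.25, while that of all genes moved to 0.24 and the share of lower among all called genes from 48.9% to 26.8%. The library of cell2_LY replicate 1 was divided by 1.23 times its reads on genes, and the others by 0.949 to 1.04 times.

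In complex I, 5 of 36 nuclear members fell. NDUFA9, which lies near the quinone site, had 3757 and 4202 normalized counts in LY_DMSO and 1083 and 2514 in cell2_LY, a log2 fold change of -1.27 ± 0.38 (SE, adjusted p = 0.104). NDUFA10 had 5021 and 4899 in LY_DMSO and 1558 and 2798 in cell2_LY, a change of -1.25 ± 0.31 (SE, adjusted p = 0.0833). NDUFS7, which carries the last iron-sulfur cluster of the chain, had 1289.8 and 1356 in LY_DMSO and 550.4 and 775 in cell2_LY, a change of -1.02 ± 0.29 (SE, adjusted p = 0.0973). In all 3 both treated libraries lay below both controls, and cell2_LY replicate 1 was the lower one.

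NDUFB5 and NDUFB11, accessory subunits of the membrane arm, fell too. NDUFB5 had 6439 and 6557 in LY_DMSO and 2024 and 4670.5 in cell2_LY, a change of -1.08 ± 0.38 (SE, adjusted p = 0.139), and NDUFB11 had 2363 and 3873 in LY_DMSO and 1326 and 1677 in cell2_LY, a change of -1.02 ± 0.33 (SE, adjusted p = 0.119). NDUFS6, an accessory subunit that binds zinc, was the only one of the 36 above 0, with 1284 and 727 in LY_DMSO and 1113 and 1506 in cell2_LY and a change of 0.42 ± 0.34 (SE, adjusted p = 0.469).

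UQCRC1 had 5029 and 3877 normalized counts in LY_DMSO and 1104 and 1995 in cell2_LY, 2.97-fold lower at -1.57 ± 0.34 (SE, adjusted p = 0.0743). UQCRC2, its partner core protein, had 5193 and 4579.8 in LY_DMSO and 2053 and 2825 in cell2_LY, a change of -1.02 ± 0.27 (SE, adjusted p = 0.088). Neither overlapped. UQCR11, a small subunit of complex III, had 2909.5 and 1689 in LY_DMSO and 2917 and 2809 in cell2_LY, a change of 0.37 ± 0.30 (SE, adjusted p = 0.474).

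In complex V, ATP5F1A and ATP5F1B of the catalytic head fell, and the other subunits of the head did not pass, ATP5F1C at -0.97 ± 0.32 (SE, adjusted p = 0.122), ATP5F1D at -0.03 ± 0.24 (SE, adjusted p = 0.957) and ATP5F1E at -0.01 ± 0.31 (SE, adjusted p = 0.993). ATP5F1A, the alpha subunit, had 42600 and 31922 normalized counts in LY_DMSO and 11781 and 24184 in cell2_LY, a log2 fold change of -1.13 ± 0.39 (SE, adjusted p = 0.138). ATP5F1B had 32077 and 25257 in LY_DMSO and 10793 and 17017 in cell2_LY, a change of -1.07 ± 0.33 (SE, adjusted p = 0.109). ATP5MJ, a small membrane subunit, was the highest of the complex at 0.00 ± 0.29 (SE, adjusted p = 0.994), with 3141 and 2810.2 in LY_DMSO and 2328 and 3815 in cell2_LY. Its lone high value was in cell2_LY replicate 2.

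Complexes II and IV held no gene past the threshold. SDHD had 12734 and 10213 in LY_DMSO and 5121 and 7995 in cell2_LY, a change of -0.83 ± 0.30 (SE, adjusted p = 0.148), and SDHA had 4013 and 3198 in LY_DMSO and 3458 and 3498 in cell2_LY, a change of -0.04 ± 0.25 (SE, adjusted p = 0.934) that turned to 0.38 under quantile normalization and 0.19 with the reads on genes as library size. COX7A2L was the lowest of complex IV, with 4402 and 7019 in LY_DMSO and 2444 and 3857 in cell2_LY and a change of -0.86 ± 0.33 (SE, adjusted p = 0.16), and COX7C the highest apart from COX6B2, with 6974 and 5188 in LY_DMSO and 5929.8 and 7983 in cell2_LY and a change of 0.19 ± 0.29 (SE, adjusted p = 0.706). SDHD and COX7A2L did not overlap between groups, and SDHA and COX7C did.

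Among nuclear members gene length went the other way here than in LY10. The 9 genes that fell were 607 to 1952 bases long (median 1337), and Spearman's rho of length and log2 fold change over the 82 members was -0.45. Over all tested genes rho was 0.17, of the same sign as the 0.08 in LY10. Above 2000 bases the medians were 0.11 for all 10083 genes and -0.54 for 4 members. Members of over 1000 and up to 2000 bases had a median of -0.72, beside -0.31 for all 3001 genes of that length, and members of up to 600 bases -0.26, beside -0.02 for all 490. Trophectoderm markers also differed: of 12 tested 3 rose (25%, beside 8.71% of all genes) and none fell. Their sum was 4952 and 4183 FPKM in LY_DMSO and 5127 and 7751 in cell2_LY. Epiblast markers summed to 665 and 523 in LY_DMSO and 498 and 367 in cell2_LY, with FGF4 at 0 reads in all of them. The part of gene length or of these markers in the result was not tested.

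Of the 13 mitochondrial genes 2 fell in cell2_LY, both from overlapping gene pairs. ND4L had 3394 and 3219.5 normalized counts in LY_DMSO and 593 and 1538 in cell2_LY, 3.46-fold lower at a log2 fold change of -1.79 ± 0.41 (SE, adjusted p = 0.0782). ATP8 had 705 and 947 in LY_DMSO and 152 and 492 in cell2_LY, a change of -1.58 ± 0.51 (SE, adjusted p = 0.118). ND3 was the highest at 0.44 ± 0.27 (SE, adjusted p = 0.349), with 5221 and 5446 in LY_DMSO and 5978 and 8736 in cell2_LY. ND4L passed the threshold whichever library was left out, and ATP8 did not without cell2_LY replicate 1 or without LY_DMSO replicate 2. The partners ND4 (log2 fold change -0.07 ± 0.39) and ATP6 (-0.45 ± 0.39) of the same pairs did not pass. The median of the 13 genes was -0.25, and 0.11 without cell2_LY replicate 1.

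Of the neighbouring lists, genes that maintain mitochondrial DNA and RNA held the most members past the threshold in cell2_LY. 10 of 29 fell (34.5%, beside 8.34% of all genes) and none rose, with a median of -0.79, and without cell2_LY replicate 1 7 fell. They included TFAM (log2 fold change -1.27), which packs mitochondrial DNA and starts its transcription, TFB2M (-1.12), a transcription factor of the mitochondrial polymerase, and TEFM (-1.44), its elongation factor. HSD17B10 (-1.55), PRORP (-1.21) and TRMT10C (-1.02), which together cut tRNA ends from mitochondrial transcripts, fell as well. With the reads on genes as library size 5 of the 29 fell and 1 rose.

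Assembly factors fell in 6 of 50 cases (12%, near the 8.34% of all genes, median -0.35), NDUFAF1 (-1.81), needed for complex I, being the lowest of those called. Of 17 genes of electron carriers and coenzyme Q 3 fell (17.6%), namely ETFA (-1.09), ETFDH (-1.17) and COQ3 (-1.33), and of 12 biogenesis regulators GABPA (-1.07) and ESRRB (-1.35). Of 8 carriers and porins 2 rose, UCP2 (2.07) and SLC25A6 (1.24), and 3 fell, VDAC1 (-1.78), SLC25A5 (-1.69) and SLC25A4 (-1.23). SLC25A4, SLC25A5 and SLC25A6 all encode exchangers of ADP and ATP, and their directions differed.

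Blastocysts treated from the 16-cell stage (cell16_LY) had fewer members past the threshold against the same LY_DMSO libraries. NDUFV1 and UQCRC1 fell and no nuclear member rose, with 67 of 82 below 0 and a median of -0.25. Over all genes 3.25% rose and 1.97% fell, beside 0% and 2.44% of nuclear members. At a p under 0.05 alone, 0 members were higher and 5 lower, beside 4.37% and 3.25% of all genes. NDUFV1 had 1543 and 1699 normalized counts in LY_DMSO and 630.3 and 859.5 in cell16_LY, 2.2-fold lower at -1.14 ± 0.27 (SE, adjusted p = 0.499). UQCRC1 had 5029 and 3877 in LY_DMSO and 1866 and 2406 in cell16_LY, 2.08-fold lower at -1.06 ± 0.34 (SE, adjusted p = 0.557). Both genes had both treated libraries below both controls. Neither passed without cell16_LY replicate 1, UQCRC1 did not without LY_DMSO replicate 1, and 1 gene passed under quantile normalization.

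The other complexes held no gene past the threshold in cell16_LY. COX4I1 had 11004 and 10747 in LY_DMSO and 6730.5 and 7920.3 in cell16_LY, a change of -0.57 ± 0.31 (SE, adjusted p = 0.714), and ATP5MC1 had 9367 and 7893 in LY_DMSO and 5664 and 5417 in cell16_LY, a change of -0.63 ± 0.28 (SE, adjusted p = 0.658). Both were lower in each treated library. At the other end, COX7C (0.41 ± 0.29 (SE, adjusted p = 0.774)) had 6974 and 5188 in LY_DMSO and 8643 and 7416 in cell16_LY, and NDUFS6 (0.43 ± 0.34 (SE, adjusted p = 0.805)) had 1284 and 727 in LY_DMSO and 1483 and 1144 in cell16_LY. SDHC, a membrane anchor of complex II, was at 0.26 ± 0.29 (SE, adjusted p = 0.871), SDHA at -0.32 ± 0.25 (SE, adjusted p = 0.804), UQCR11 at 0.31 ± 0.30 (SE, adjusted p = 0.84) and ATP5PF, a stalk subunit of the synthase, at 0.07 ± 0.35 (SE, adjusted p = 0.981). Of these 6, only COX7C and SDHA did not overlap.

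No mitochondrial gene passed the threshold or had a p under 0.05 in cell16_LY, and their median was 0.08. ND5 was the highest, with 49433 and 31626 normalized counts in LY_DMSO and 63086 and 56988 in cell16_LY, a change of 0.60 ± 0.45 (SE, adjusted p = 0.792). COX3 was the lowest, with 207520 and 328960 in LY_DMSO and 200260 and 168060 in cell16_LY, a change of -0.51 ± 0.49 (SE, adjusted p = 0.837). The groups did not overlap in either gene. Of the lists beside the complexes, read against 3.25% of all genes higher and 1.97% lower, none of 50 assembly factors, of 29 maintenance genes or of 17 carriers passed (medians -0.09, -0.18 and -0.22). Of 12 biogenesis regulators ESRRB (-1.29) and PPARGC1B (-1.05) fell (median -0.24), and of 8 carriers and porins UCP2 (1.5) rose and SLC25A5 (-1.06) fell (median -0.24).

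Set against each other, cell16_LY and cell2_LY differed in mitochondrial genes, and no nuclear member passed the threshold. This comparison asks whether the time at which LY was added matters, and since both groups share LY_DMSO it is also the test of the difference between their changes. Over all genes 5.58% were higher and 5.77% lower in cell16_LY, and at a p under 0.05 alone 10.1% and 7.73%. Of 82 nuclear members 64 were above 0 (median 0.28), 6 with a p under 0.05 higher and 0 lower. Without cell2_LY replicate 1 the median was -0.09, under quantile normalization -0.01, and without cell2_LY replicate 2 it was 0.61 with 10 genes higher. With the reads on genes as library size it was 0.06, and the share of lower among all called genes moved from 50.9% to 75.0%.

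ND4L had 593 and 1538 normalized counts in cell2_LY and 3282 and 3315 in cell16_LY, 3.45-fold higher at a log2 fold change of 1.79 ± 0.41 (SE, adjusted p = 0.191). ND5 had 14451 and 34137 in cell2_LY and 63086 and 56988 in cell16_LY, a change of 1.43 ± 0.45 (SE, adjusted p = 0.198), and ATP8 had 152 and 492 in cell2_LY and 731 and 554 in cell16_LY, a change of 1.22 ± 0.51 (SE, adjusted p = 0.263). None of the 3 overlapped. ND4L passed whichever library was left out. ND5 did not without cell2_LY replicate 1 or cell16_LY replicate 1, and of the 6 fits with 1 library left out ATP8 passed only in that without cell2_LY replicate 2. ND1 was the lowest of the 13 at -0.40 ± 0.31 (SE, adjusted p = 0.502), with 46730 and 50764 in cell2_LY and 37203 and 36562 in cell16_LY.

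Nuclear genes at the ends of each complex stayed below the threshold. NDUFA9 had 1083 and 2514 in cell2_LY and 3134 and 3100 in cell16_LY, a change of 0.92 ± 0.38 (SE, adjusted p = 0.258), and NDUFV1 had 999 and 1133 in cell2_LY and 630.3 and 859.5 in cell16_LY, a change of -0.53 ± 0.27 (SE, adjusted p = 0.333). SDHC had 2591 and 3368 in cell2_LY and 5912 and 4627 in cell16_LY, a change of 0.82 ± 0.29 (SE, adjusted p = 0.219). These 3 genes did not overlap between the groups. UQCRC2 was at 0.66 ± 0.27 (SE, adjusted p = 0.255), COX7B at 0.67 ± 0.27 (SE, adjusted p = 0.252) and ATP5F1A at 0.65 ± 0.39 (SE, adjusted p = 0.4), the highest of complexes III, IV and V apart from COX7ALP1. The lowest, apart from COX6B2, were SDHA at -0.28 ± 0.25 (SE, adjusted p = 0.576), UQCR11 at -0.06 ± 0.30 (SE, adjusted p = 0.937), COX8A at -0.16 ± 0.23 (SE, adjusted p = 0.737) and ATP5F1D at -0.41 ± 0.24 (SE, adjusted p = 0.389). Of the neighbouring lists, 4 of 29 maintenance genes were higher (13.8%, beside 5.58% of all genes) and 1 lower (median 0.59), 2 of 50 assembly factors higher (4%, median 0.30), 2 electron carrier genes higher (median 0.20), 1 carrier or porin higher (median 0.38) and 1 biogenesis regulator lower (median -0.23).

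**Figure D4:**
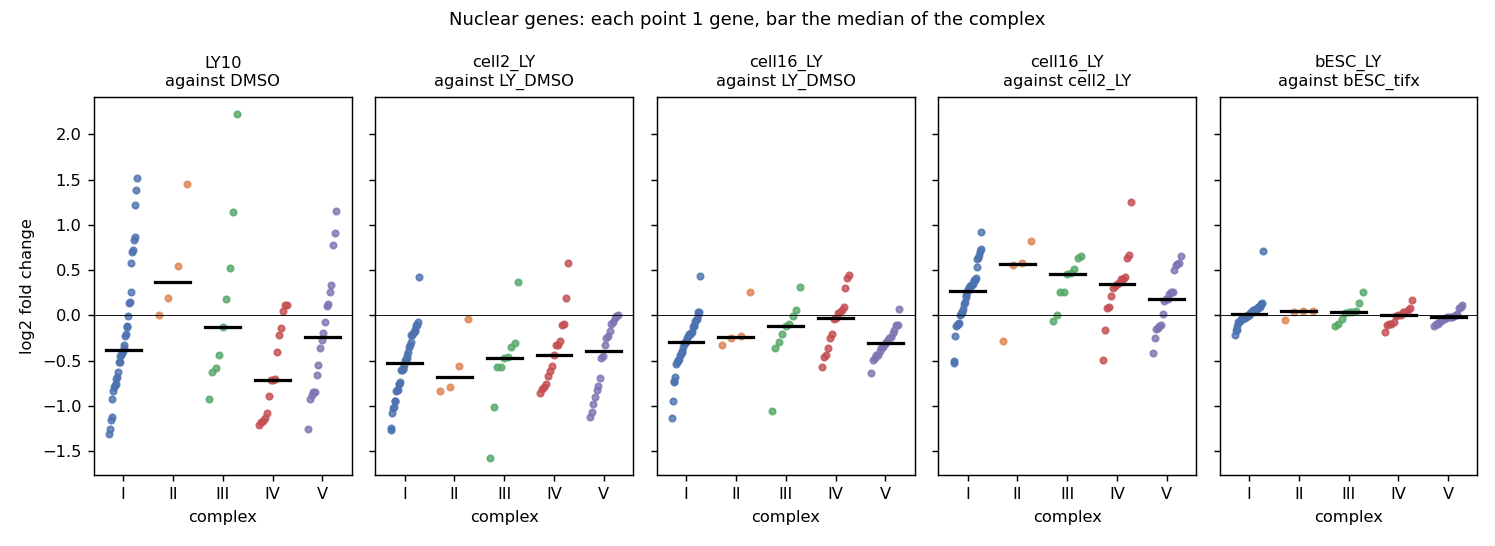
Log2 fold change of each nuclear member by complex in the 5 comparisons, 1 point per gene with a bar at the median of the complex. Complex IV sits lowest in LY10 at -0.71, complex II lowest in cell2_LY at -0.68, and in bESCs all medians lie between -0.02 and 0.04.

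**Figure D5:**
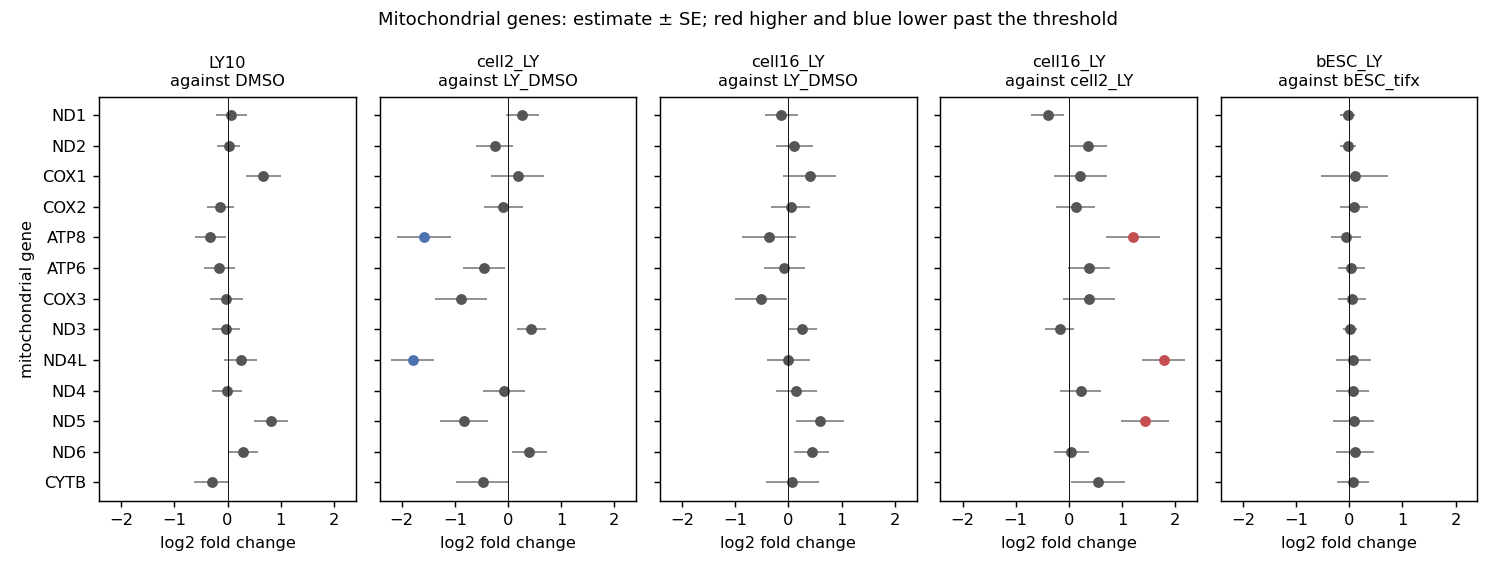
Log2 fold change of the 13 mitochondrial genes in the 5 comparisons, in the order of mitochondrial DNA, with bars of 1 SE of the fit. ND4L and ATP8 are lower past the threshold in cell2_LY, ND4L, ND5 and ATP8 are higher in cell16_LY against cell2_LY, and no gene passes in the other 3 comparisons.

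In bESCs no member passed the threshold or had a p under 0.05 in limma between bESC_LY and bESC_tifx, with the library number not in the fit, in a comparison that asked whether LY acts on these genes in pluripotent cells. Of 80 tested nuclear members 40 were above 0 and 40 below, with a median of 0.00 and a median standard error of 0.23. Few genes of any kind passed: 0.0375% rose and 0.0375% fell of 16012, and at a p under 0.05 alone 0.05% were higher and 0.05% lower. The 13 mitochondrial genes had a median of 0.06. Libraries of 1 group differed by number, which adds to these errors, and a change smaller than them was not detectable in that fit.

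The summed levels above split by number in opposite directions for the 2 genomes, and single genes showed the same. ND6 had 10533 and 17823 normalized counts in bESC_tifx and 11823 and 18407 in bESC_LY, a log2 fold change of 0.11 ± 0.35 (SE, adjusted p = 1), with the higher value in the libraries numbered 3. ATP8 was the lowest mitochondrial gene at -0.06 ± 0.29 (SE, adjusted p = 1), with 365 and 433 in bESC_tifx and 311 and 469 in bESC_LY. UQCRC2 had 3361 and 2591 in bESC_tifx and 3220.2 and 2299 in bESC_LY, a change of -0.12 ± 0.24 (SE, adjusted p = 1), and SDHB, the iron-sulfur subunit of complex II, had 2626 and 1951 in bESC_tifx and 2482 and 1911 in bESC_LY, a change of -0.06 ± 0.23 (SE, adjusted p = 1). For these nuclear genes the lower value was in the libraries numbered 3.

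NDUFA12 showed the highest log2 fold change, with 502 and 304 in bESC_tifx and 475 and 865 in bESC_LY, a change of 0.71 ± 0.42 (SE, adjusted p = 1). bESC_LY replicate 3 alone was high, the libraries numbered 2 were nearly level and the groups overlapped. NDUFA1 was the lowest of complex I, with 624 and 514 in bESC_tifx and 511 and 464 in bESC_LY, a change of -0.22 ± 0.20 (SE, adjusted p = 1). The remaining ends of the complexes were SDHC at 0.04 ± 0.25 (SE, adjusted p = 1), UQCR11 at 0.25 ± 0.28 (SE, adjusted p = 1), COX6A1 at 0.17 ± 0.27 (SE, adjusted p = 1), COX6B2 at -0.18 ± 0.32 (SE, adjusted p = 1), ATP5F1D at 0.12 ± 0.26 (SE, adjusted p = 1) and ATP5IF1 at -0.12 ± 0.24 (SE, adjusted p = 1). The neighbouring lists held no gene past the threshold, with medians of 0.03 for assembly factors, 0.01 for maintenance genes, -0.03 for biogenesis regulators, 0.09 for electron carriers and -0.02 for carriers and porins.

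The treated blastocysts of the separate experiments thus showed different patterns in the same genes. UQCRC1 was 2.23 ± 0.39 in LY10, -1.57 ± 0.34 in cell2_LY and -1.06 ± 0.34 in cell16_LY, and ATP5F1B was 1.16 ± 0.26, -1.07 ± 0.33 and -0.50 ± 0.33. COX7C, by contrast, was -1.21 ± 0.25, 0.19 ± 0.29 and 0.41 ± 0.29. Across the 82 nuclear members Pearson's r of the log2 fold changes with those of LY10 was -0.50 for cell2_LY and -0.48 for cell16_LY, which share no library with LY10, and 0.04 for bESCs over 76 members. These are descriptions across genes, which are not independent replicates, and in both blastocyst tables the changes moved with gene length. Both LY_DMSO libraries gave 3.02% and 3.16% of their reads to short genes other than members, in the range of LY10 (2.72% to 3.34%) and below that of DMSO (4.44% to 6.21%).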

How the data were processed

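RNA-seq of 12 single-blastocyst libraries and 4 bESC libraries was analysed. The deposited values used are FPKM, which the authors computed per gene after alignment and counting. The methods name both STAR and HISAT2, and the submitters' processing notes name HISAT2 2.0.5, StringTie 1.3.3b, featureCounts 1.5.0-p3 and DESeq2 1.20.0. Annotation positions are those of the files. The authors' fold change and p-value columns were not used. FPKM multiplied by gene length gave whole reads for 100% of values within 0.02 reads, so the reads and the library size that the FPKM imply were recovered. Reads on genes ranged from 7905768 to 31230432, and intervals and limits cover counting error only.

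FPKM times length was brought to the geometric mean library size of each table (normalized counts). Genes with a mean of at least 10 were tested as log2(value + 1) in limma 3.58.1 (R 4.3.3) with moderated variance, within a table, with all groups of the table sharing 1 estimate of the spread. Fold changes are on that scale and understate the change of low genes. p-values were adjusted by Benjamini-Hochberg over all tested genes. Following the study's threshold, a gene was called where its p before adjustment was under 0.05 and its log2 fold change was above 1 or below -1. The test was checked on simulated data. Tables were made with Python 3.11.15, pandas 2.3.3, numpy 2.4.6 and matplotlib 3.10.9.

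Groups followed the labels, and LY_DMSO was taken as the DMSO control of its table. The values of 1 nuclear gene that the counts include are not reported here. Genes named are, for each comparison, the members past the threshold (the 6 with the smallest p in a direction with more than 12), the highest and lowest nuclear gene of each complex with a mean of 50 normalized counts or more, the highest and lowest mitochondrial gene, and by level the mitochondrial genes and known isoforms. Members, gene lists and this rule were chosen with earlier results of these data known, and the core and accessory classes after the values were seen. Alternatives were pseudocounts of 0.5 and 5, other filters, TMM, quantile and voom scaling, log2(FPKM + 1), mitochondrial reads left out of the library size, a replicate block and each library left out. Reads on genes as library size and a crossed block were added after the data were seen.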

Additional observations from a re-analysis of the deposited data

Results flagged for a closer look

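ND4L, ND5 and ATP8 of mitochondrial DNA differed between cell16_LY and cell2_LY by 1.79, 1.43 and 1.22 on the log2 scale, which is a test of the difference of their changes from the shared LY_DMSO libraries. Without cell2_LY replicate 1, ND4L alone passed.

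For the nuclear genes named next, every LY10 library lay above every DMSO library while every cell2_LY library lay below every LY_DMSO library. The log2 fold changes in LY10 and cell2_LY were 2.23 and -1.57 for UQCRC1, 1.39 and -0.61 for NDUFV1, 1.23 and -0.82 for NDUFS1, and 1.16 and -1.07 for ATP5F1B. They were 1.14 and -0.57 for CYC1, 0.91 and -1.13 for ATP5F1A, 0.87 and -1.25 for NDUFA10, 0.83 and -1.02 for NDUFS7, and 0.73 and -1.27 for NDUFA9. Against cell16_LY the same held for UQCRC1 (2.23 and -1.06), SDHA (1.45 and -0.32), NDUFV1 (1.39 and -1.14) and ATP5F1B (1.16 and -0.50), and in the other direction for COX7C (-1.21 and 0.41). ATP5ME was at -1.25 in LY10 and 0.09 in bESCs. These differences between experiments were not tested, since the tables were normalized separately. Beside LY10, 13 members separated the groups in the opposite direction in cell2_LY, 10 in cell16_LY and 2 in bESCs, and only those under the naming rule are listed. The share of all genes that did so was not computed, nor were members that separated the groups in the same direction counted. The pattern is therefore not shown to be particular to these genes.

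The mitochondrial ribosomal RNAs, which were no members, were higher than in every control library of their table in the treated libraries named here, which for the 16S rRNA leaves out LY10. The 12S rRNA was at 4156, 2941 and 2122 FPKM in LY10, beside 707, 1435 and 1125 in DMSO. In cell2_LY it reached 9714 and 7634 FPKM, beside 4171 and 1683 in LY_DMSO. The cell16_LY libraries held 5798 and 5369 FPKM of it, and those of bESC_LY 204 and 183, beside 182 and 136 in bESC_tifx. The 16S rRNA followed with 4211 and 3333 FPKM in cell2_LY, beside 2437 and 1467 in LY_DMSO. The cell16_LY libraries held 3428 and 2793 FPKM, and those of bESC_LY 598 and 649, beside 572 and 559 in bESC_tifx. In limma the 12S rRNA differed by 1.5 on the log2 scale in LY10 (adjusted p = 0.0786). It differed by 1.70 in cell2_LY (adjusted p = 0.0941) and by 1.07 in cell16_LY (adjusted p = 0.651).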

How the results depend on the processing

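Quantile normalization left 1 nuclear gene lower in cell2_LY (median -0.15) and 1 in cell16_LY (median -0.16), and reads on genes as library size left 3 lower in cell2_LY. SDHA in cell2_LY was 0.02 with TMM factors, 0.38 under quantile normalization and 0.19 with reads on genes, and ATP5MJ there was -0.01 without mitochondrial reads in the library size. Without a filter 1 nuclear gene passed as higher in bESCs, and the median of all genes in LY10 moved to -0.33. With voom weights on the recovered reads, LY10 had 7 nuclear genes higher, 9 lower and 0 mitochondrial genes past the threshold, and bESCs had 0 members. The causes were not tested.

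Leaving out 1 library gave ranges of 4 to 11 nuclear genes higher, 3 to 14 lower and 0 to 1 mitochondrial genes in LY10. In cell2_LY it gave 1 to 30 nuclear genes lower, 1 to 5 mitochondrial genes, nuclear medians of -0.82 to -0.18 and mitochondrial medians of -0.55 to 0.11. In cell16_LY it gave 0 to 3 lower, nuclear medians of -0.33 to -0.19 and mitochondrial medians of 0.00 to 0.17. For cell16_LY against cell2_LY it gave 0 to 10 nuclear genes higher, 1 to 4 mitochondrial genes, nuclear medians of -0.09 to 0.61 and mitochondrial medians of -0.07 to 0.62. In bESCs 0 to 1 nuclear genes were higher. Small changes turned in sign: SDHD in LY10 (-0.17 to 0.31), SDHA (-0.21 to 0.12), UQCR11 (-0.02 to 0.76), COX7C (-0.02 to 0.41) and ATP5MJ (-0.35 to 0.36) in cell2_LY, and SDHC (0.00 to 0.52), UQCR11 (-0.08 to 0.70) and ATP5PF (-0.15 to 0.29) in cell16_LY. UQCR11 ranged from -0.13 to 0.02 in cell16_LY against cell2_LY. In bESCs the ranges were SDHB -0.27 to 0.16, UQCRC2 -0.36 to 0.13, COX6B2 -0.50 to 0.14, ATP5IF1 -0.34 to 0.11, ND6 -0.27 to 0.49, SDHC -0.20 to 0.29, COX6A1 -0.09 to 0.43, ATP5F1D -0.17 to 0.41, ATP8 -0.35 to 0.24 and UQCR11 -0.01 to 0.52.

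Replicate numbers were not shown to pair libraries. The correlations given here are of values with the group mean of each gene removed, not of expression levels. Same-numbered libraries correlated at -0.12, 0.17 and -0.10 in the LY10 table and at 0.12, -0.23 and -0.13 in the second. In bESCs they correlated at 0.79, and libraries of different number at -0.79, since groups of 2 libraries mirror each other on this scale. The bESC labels do not say what a number marks. With a replicate block 7 nuclear genes were higher and 8 lower in LY10, 9 were lower in cell2_LY and 2 in cell16_LY, as without it. In bESCs the block raised the genes past adjustment from 0 to 116, while 0 members passed the threshold. NDUFA12 (log2 fold change 0.71, adjusted p = 1.39e-05 in limma) was the only member among the 116. From bESC_tifx to bESC_LY it went from 502 to 475 normalized counts in the libraries numbered 2 and from 304 to 865 in those numbered 3. The moderated variance borrows from other genes, so this p-value does not measure the spread of NDUFA12 itself. With the numbers of cell16_LY crossed, 682 genes passed adjustment in cell2_LY in place of 2, 1 nuclear and 1 mitochondrial member among them.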
